A study of Homo sapiens with 6 samples.

Results

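The genes described here encode the nuclear part of the oxidative phosphorylation machinery: the subunits of respiratory complexes I to IV and of the ATP synthase, complex V. Members were chosen by name, as every probe set whose single annotated symbol begins with NDUFA, NDUFB, NDUFC, NDUFS, NDUFV, SDHA, SDHB, SDHC, SDHD, UQCR, COX4, COX5, COX6, COX7, COX8, ATP5F, ATP5M or ATP5P. Assembly factors and pseudogenes were left out, and so were the 6 probe sets of the non-coding genes and pseudogenes NDUFV1-DT, NDUFB2-AS1, NDUFV2-AS1, ATP5MC2P1 and COX6A1P1. This gave 76 genes measured by 148 probe sets, of 19775 genes and 54675 probe sets in all. Complex I contributed 33 genes, complex II 3, complex III 6, complex IV 17 and complex V 17. Where a gene had several probe sets, the one with the highest mean over the 6 arrays was used.

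The arrays measured K562, an established human chronic myeloid leukaemia line that carries the BCR-ABL fusion. Cells were nucleofected with up to 200 nM of the siRNA RNAi8 against PRAME, a cancer-testis antigen reported to repress retinoic acid receptor signalling, or with scrambled RNA, and 24 h later received all-trans retinoic acid (ATRA) or the solvent DMSO. There were 3 experiments with 1 siRNA array and 1 scrambled array each. Experiments 1 and 3 were treated with ATRA and experiment 2 with DMSO. Every cell was therefore nucleofected, no array measured cells that had not been, and DMSO was measured in 1 experiment only. The design text calls the experiments independent, but the labels name no separate RNA preparations or array dates, so p-values measure the spread between these arrays.

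Oxidative phosphorylation takes place in the inner mitochondrial membrane. Complexes I and II pass electrons from NADH and succinate to ubiquinone, complex III passes them to cytochrome c, and complex IV reduces oxygen with them. Complexes I, III and IV pump protons as they do so, and the ATP synthase uses the returning protons to make ATP. The mitochondrial genome encodes a few core subunits of complexes I, III, IV and V, and nuclear genes encode the rest, including all of complex II. Proliferating leukaemia cells make ATP by both glycolysis and this chain.

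Of the K562 erythroid marker genes, 10 were measured and 0 were dim, that is, had a mean below 5.99, the median of all probe sets on the log2 scale. Of the lymphocyte markers, 5 of 8 for T and NK cells and 3 of 5 for B cells were dim, as were 3 of 6 for stroma; of the epithelial markers 1 of 6 was dim. PRAME was lower with the siRNA by 0.88, 0.85 and 0.60 on the log2 scale in experiments 1, 2 and 3. CYP26A1, a retinoic acid target, had mean levels of 11.33 and 12.03 in the ATRA experiments and 5.74 in the DMSO experiment, in the direction of the treatment labels. Experiment 3 stood apart: its arrays correlated with those of experiments 1 and 2 at 0.979 to 0.982, and the latter among themselves at 0.996 to 0.998. Its gap between 3′ and 5′ probe sets of actin, a sign of RNA length, was 2.98 and 3.36 in the siRNA and scrambled arrays, against 0.63 to 0.92 in the other arrays. The same gap of GAPDH was 1.20 and 0.74, against 0.03 to 0.08. Actin was thus wider in the scrambled array and GAPDH in the siRNA array. Its summed T and NK marker level was 9.88 to 10.05, against 10.77 to 10.90, and its summed erythroid marker level 14.46 to 14.48, against 14.30 to 14.40. The part of RNA length, or of any other feature of experiment 3, in the results below was not tested, and the siRNA, ATRA and difference results are also given without that experiment.

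The members were mostly brightly expressed, with mean levels from 2.82 (COX8C) to 13.35 (ATP5F1A). Their median level was 11.82 and 11.77 in the siRNA and scrambled arrays of experiment 1, 11.85 and 11.85 in experiment 2, and 11.46 and 11.65 in experiment 3. The median over all genes was between 6.72 and 6.74 in every array. Of the 76 members, 72 were above the dim limit, and the 4 below it were the isoform genes COX6A2, COX7A1, COX7B2 and COX8C. The plot of members by array shows that the lower member levels were in experiment 3, and lowest in its siRNA array.

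**Figure D1:**
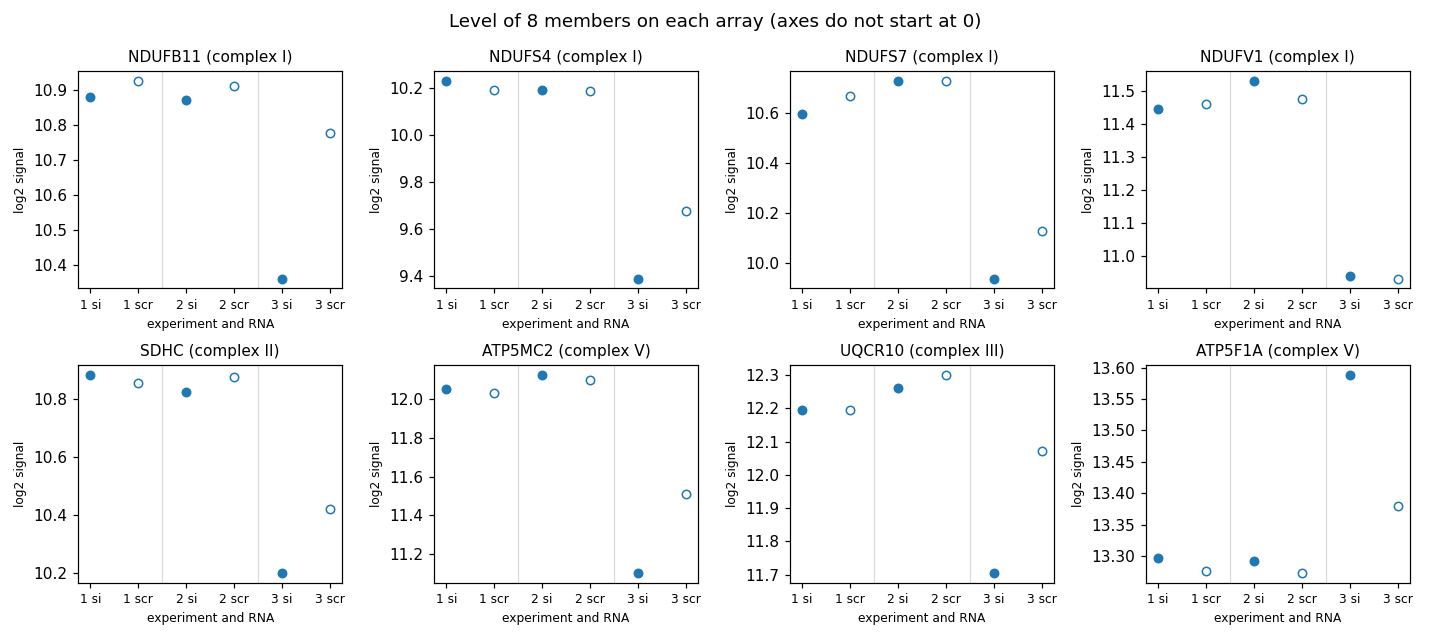
Levels (log2, RMA; axes do not start at 0) of 8 members in the 6 arrays, grouped by experiment, with filled symbols for the siRNA array and open symbols for the scrambled array. In experiments 1 and 2 the points of a gene nearly coincide (ATP5MC2 at 12.03 to 12.13), and in experiment 3 several lie lower, the siRNA array at 11.10 and the scrambled array at 11.51 for ATP5MC2.

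The first comparison asks whether the PRAME siRNA altered these genes. No member passed the test: 0 of 76 had a limma adjusted p under 0.05 (Benjamini-Hochberg over 19775 genes), against a background of 0% of all genes, and 0 had an unadjusted p under 0.05, against 1.29%. With the experiment as a block, 0 of 76 members passed, against 0.0253% of all genes. In that fit 1 member, NDUFB11, had an unadjusted p under 0.05, against 6.41% of all genes. PRAME, the siRNA target, had a mean difference of -0.78. It did not pass without the block and passed with it (limma adjusted p = 0.000997), so the fit without the block can miss such a difference. The members' median difference, siRNA minus scrambled, was -0.04, against 0.01 over all genes, and the members ranged from -0.17 to 0.08. The siRNA mean was lower for 56 members (73.7%, against 47.1% of all genes) and higher for 20. That count rested on experiment 3, since over experiments 1 and 2 alone 37 members were lower and 39 higher, with a median of 0.00. Of all genes 46.8% were lower over those 2 experiments.

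Within experiments 1 and 2 the siRNA and scrambled arrays were nearly alike for this machinery. In each of them 72 of 76 members differed by less than 0.1 on the log2 scale. The widest differences in experiment 1 were at COX6B2 (-0.16) and COX7B2 (0.14), and in experiment 2 at NDUFB6 (-0.11) and COX6A2 (0.18), 3 of these 4 being tissue-restricted isoforms with low signal. In experiment 3 only 22 of 76 members lay within that limit, and the median difference was -0.12, against 0.01 and 0.00 in experiments 1 and 2. There, 55 members (72.4%) were lower with the siRNA, against 47.0% of all genes. Among genes with a mean level of at least 10, the 67 members had a median of -0.12 in that experiment and the 2049 other genes 0.02. These are 2 arrays without a replicate, so no test was made within the experiment.

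**Figure D2:**
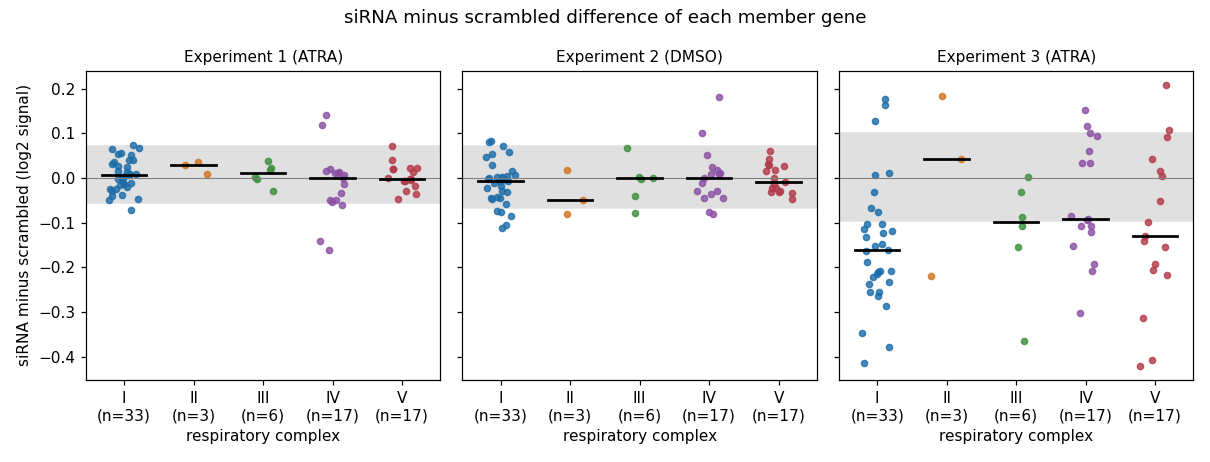
Difference between siRNA and scrambled arrays (log2) for each member, by complex and experiment; points are genes, black bars the medians of the members and the grey band the middle 50% of all 19775 genes. Members sit close to 0 in experiments 1 and 2 and spread from -0.42 to 0.21 in experiment 3, where the complex I median is -0.16.

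In experiment 3 the median difference was -0.16 for complex I, where 28 of 33 genes were lower, 0.04 for complex II, -0.10 for complex III, -0.09 for complex IV and -0.13 for complex V. NDUFB11, a supernumerary subunit in the membrane arm of complex I, measured 10.88 with the siRNA and 10.93 with scrambled RNA in experiment 1, 10.87 and 10.91 in experiment 2, and 10.36 and 10.78 in experiment 3. The siRNA array of experiment 3 was the low one, and the scrambled array lay a little below the other 4. Its mean difference was -0.17 ± 0.16 (SE, 3 experiments; 95% interval -0.57 to 0.23; limma adjusted p = 1), and with the experiment as a block -0.17 ± 0.07 (adjusted p = 0.771). NDUFB10, also in that arm, measured 11.48 and 11.49, 11.51 and 11.56, and 10.79 and 11.14 in the same order. In complex III, UQCR10, a small subunit, measured 12.19 and 12.19, 12.26 and 12.30, and 11.71 and 12.07. With these probe sets the pairs of experiments 1 and 2 were almost level for both genes and that of experiment 3 was not. The second, dimmer probe set of UQCR10 did not repeat this. It measured 7.35 and 7.23, 7.39 and 7.22, and 7.39 and 7.39, so only the pair of experiment 3 was level. The second probe set of NDUFB10 is given below.

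In complex IV, COX5B, a subunit on the matrix side, measured 12.25 with the siRNA and 12.28 with scrambled RNA in experiment 1, 12.32 and 12.31 in experiment 2, and 11.90 and 12.20 in experiment 3. COX8A, a small membrane subunit, measured 12.57 and 12.62, 12.63 and 12.65, and 12.13 and 12.34. In the ATP synthase, ATP5F1E, the epsilon subunit of the central stalk, measured 12.41 and 12.41, 12.41 and 12.44, and 12.10 and 12.41. With the probe sets used, the scrambled array of experiment 3 thus matched experiments 1 and 2 for ATP5F1E and lay below them for COX5B and COX8A. Further probe sets of COX5B disagreed in sign. Between experiments 3 and 1 they differed by -0.17, -0.19 and, for the dimmest, 0.47. The dimmest measured 7.62 and 7.47, 7.51 and 7.62, and 8.08 and 7.95. ATP5PD, a peripheral stalk subunit, had the widest difference of any member in experiment 3, with 11.61 and 12.03, and measured 12.28 and 12.29, and 12.32 and 12.26, in experiments 1 and 2. ATP5PO, the peripheral stalk subunit named for oligomycin sensitivity, measured 12.65 and 12.70, 12.68 and 12.73, and 12.36 and 12.56. The mean difference was -0.12 ± 0.10 for ATP5F1E (SE, 3 experiments; limma adjusted p = 1), -0.10 ± 0.10 for ATP5PO and -0.11 ± 0.11 for COX5B (adjusted p = 1 for each). None of these differences passed the limma test, with or without the block. Where the block is not named, the SE comes from the fit without it, so the gap between experiments 1 and 3 enters it.

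The alpha subunit of the ATP synthase head went the other way. ATP5F1A measured 13.30 with the siRNA and 13.28 with scrambled RNA in experiment 1, 13.29 and 13.27 in experiment 2, and 13.59 and 13.38 in experiment 3, a mean difference of 0.08 ± 0.09 (SE, 3 experiments; limma adjusted p = 1). ATP5F1B, the catalytic beta subunit, measured 12.72 and 12.68, 12.74 and 12.75, and 12.74 and 12.65. ATP5F1A was 1 of 4 members, with ATP5ME, COX7A2L and SDHA, that were higher with the siRNA in all 3 experiments, which held for 5.26% of members and 13.1% of all genes. ATP5ME, of the ATP synthase membrane part, measured 11.85 and 11.78, 11.91 and 11.88, and 11.86 and 11.82. NDUFA10, an accessory complex I subunit with a mean difference of 0.06 ± 0.09, measured 10.66 and 10.69, 10.90 and 10.81, and 10.63 and 10.50, so its direction was not the same in every experiment. Lower in all 3 experiments were 17 members (22.4%, against 11.9% of all genes): ATP5F1E, ATP5MC1, ATP5MF, ATP5MG, ATP5PO, COX4I2, COX6C, COX8A, NDUFA1, NDUFA2, NDUFA3, NDUFAB1, NDUFB10, NDUFB11, NDUFB5, NDUFB6 and UQCR10. None of the 17 passed the limma test in either fit. These counts use 1 probe set per gene, and the second one of UQCR10 was not lower with the siRNA in any experiment. Without experiment 3, 18 members (23.7%) were lower with the siRNA in both experiments 1 and 2, against 21.1% of all genes, and 14 (18.4%) were higher in both, against 23.9%.

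The second comparison asks whether ATRA altered the genes. Treatment varied only between experiments, so the 2 ATRA experiments were set against the 1 DMSO experiment, and 0 of 76 members passed the limma test, against a background of 0% of all genes. An unadjusted p under 0.05 was found for 0 members, against 1.19% of all genes. CYP26A1 did not pass either, at 5.94 ± 0.42 (SE; limma adjusted p = 0.995). The lack of members that passed therefore says little about an ATRA effect. The members' median difference was -0.10, against -0.01 over all genes. There were 63 members lower (82.9%, against 52.2% of all genes) and 13 higher. ATP5MC2, a gene for the c subunit of the rotor ring, had the largest difference, -0.44 ± 0.38 (SE, 3 experiments; 95% interval -1.52 to 0.65). NDUFS7, an iron-sulphur subunit of complex I, had -0.40 ± 0.38 and UQCR10 -0.24 ± 0.22, while ATP5MF of the ATP synthase membrane part had 0.10 ± 0.10. ATP5MF measured 6.08 with the siRNA and 6.12 with scrambled RNA in experiment 1, 6.02 and 6.06 in experiment 2, and 6.16 and 6.21 in experiment 3, near the dim limit in every array. The smallest limma adjusted p of any member was 0.995. The 2 ATRA experiments differed from each other, as given below, so the interval is wide.

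Experiments 1 and 2 alone form the ATRA and DMSO pair without experiment 3. There too 0 of 76 members passed, against 0.182% of all genes (limma, Benjamini-Hochberg), where the spread is that between the siRNA and scrambled arrays of an experiment. The median difference was -0.03, with 52 members lower, and the members ranged from -0.21 to 0.16. The low end was UQCRC1, a core subunit of complex III, at 10.45 and 10.45 with ATRA and 10.69 and 10.62 with DMSO. Its arrays of experiment 3, also with ATRA, lay between at 10.57 and 10.60. The high end was COX7A1, a dim heart and muscle isoform, at 6.09 and 5.97 with ATRA and 5.84 and 5.89 with DMSO, and at 5.84 and 5.72 in experiment 3. By complex, 23 of 33 genes of complex I, 1 of 3 of complex II, 4 of 6 of complex III, 9 of 17 of complex IV and 15 of 17 of complex V were lower with ATRA in this pair, against 53.6% of all genes. An unadjusted p under 0.05 was found for 18 of 76 members, against 14.9% of all genes.

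The third comparison asks whether the siRNA effect depended on ATRA. For the difference of the siRNA effects, ATRA minus DMSO, 0 of 76 members passed, against a background of 0% of all genes in both limma fits. An unadjusted p under 0.05 was found for 0 members, against 1.32% of all genes without the block and 3.31% with it. The members' median was -0.05, against 0.00 over all genes, with 53 lower (69.7%, against 49% of all genes). COX5B had -0.18 ± 0.28 (SE), SDHD, a membrane anchor of complex II, 0.19 ± 0.29, and NDUFS6 of complex I -0.17 ± 0.19. The dim isoforms COX6A2, with -0.22 ± 0.14, and COX7B2, with 0.17 ± 0.15, had the smallest p in each direction, but did not pass. NDUFS6 measured 12.17 and 12.20, 12.28 and 12.23, and 12.04 and 12.25 in the siRNA and scrambled arrays of experiments 1, 2 and 3, and NDUFA5, with 0.11 ± 0.19, measured 12.13 and 12.09, 12.06 and 12.14, and 12.21 and 12.20. Without experiment 3 the median of the members was 0.01 and that of all genes 0.01, with 32 members lower and 44 higher. Of all 19775 genes 9230 were lower and 10476 higher.

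Experiment 3 was then set against experiment 1, since both were treated with ATRA and carried the same pair of nucleofected RNAs, a comparison chosen after the data were seen. It compares 2 experiments, with the spread taken from the siRNA and scrambled arrays within each, so the p-values speak of these experiments and not of a condition. Passing as lower were 18 of 76 members (23.7%), against 8.16% of all genes (limma, Benjamini-Hochberg over 19775 genes), and as higher 0 members, against 17.3%. In either direction 25.4% of all genes passed, so the members' share of 23.7% was near the background. All of these members were lower with the brightest probe set of each gene, but with the arrays centred on their medians 17 members passed as lower and 3 as higher (COX7A2, NDUFS1 and SDHA), and with quantile normalization 18 and 2 (COX7A2 and NDUFS1). With every probe set tested on its own, 34 of 148 member probe sets (23%) passed, against 22.9% of all such probe sets, 26 as lower, against 10.1%, and 8 as higher, against 12.9%. The members' median was -0.16, against 0.01 over all genes and 0.04 over the other genes with a level of at least 10. There were 58 members lower (76.3%, against 47% of all genes) and 18 higher. Both arrays of experiment 3 lay below all 4 others for 42 members (55.3%, against 20.7% of all genes) and above them for 7 (9.21%, against 27.8%). With any 1 of the 4 arrays left out, 0 members and 0 genes passed, and the members' median stayed between -0.22 and -0.08.

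**Figure D3:**
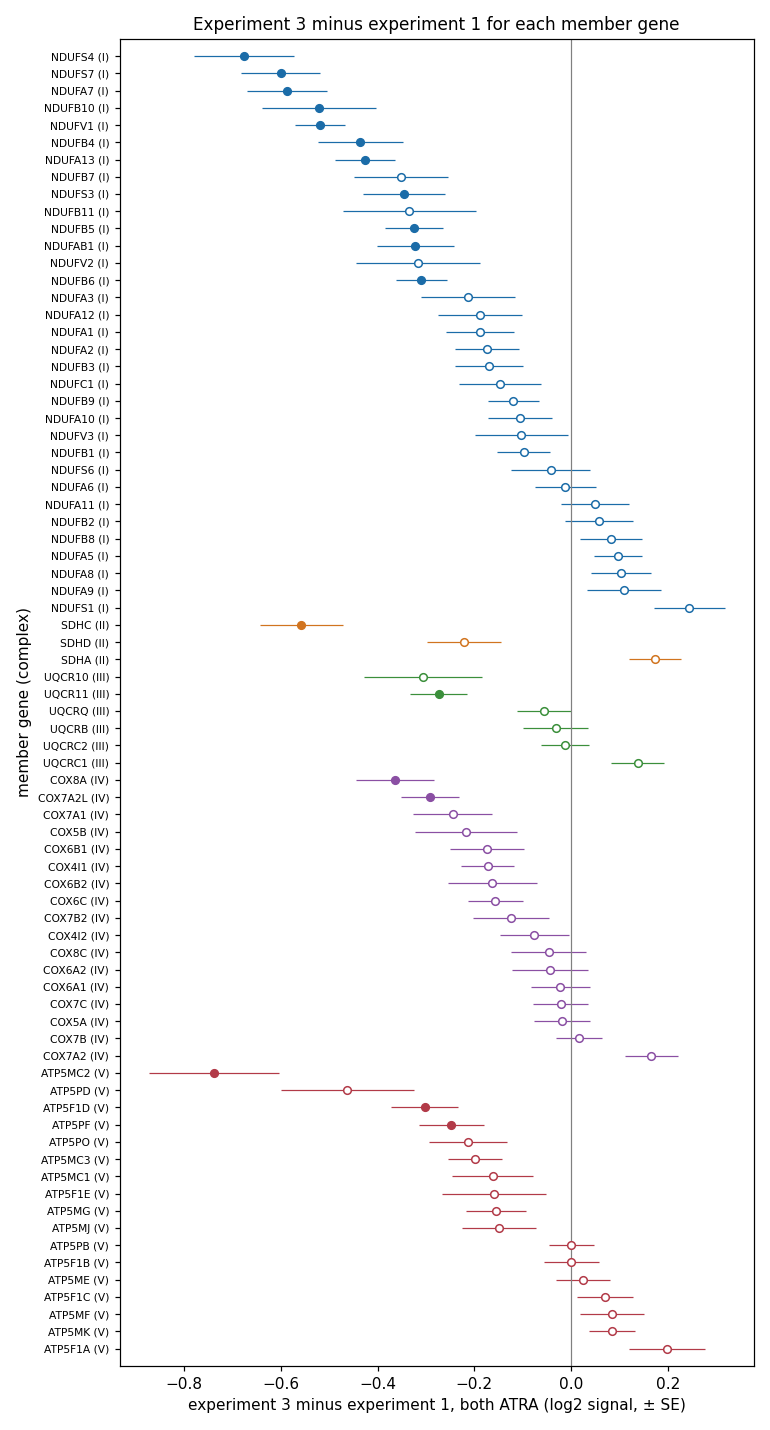
Difference between experiment 3 and experiment 1 (log2, mean of the siRNA and scrambled arrays in each) for each of the 76 members, by complex; filled points had a limma adjusted p under 0.05 and bars show the standard error. All 18 filled points lie below 0, from -0.74 to -0.25, and 11 of them are complex I genes; with median centring 3 points above 0 passed as well.

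Complex I held 11 of the 18. NDUFV1, the subunit that binds NADH and flavin, measured 11.45 and 11.46 in the siRNA and scrambled arrays of experiment 1, 11.53 and 11.48 in experiment 2, and 10.94 and 10.93 in experiment 3. Its siRNA and scrambled arrays were level in each experiment, and experiment 3 was lower by 0.52 ± 0.05 than experiment 1 (SE; limma adjusted p = 0.003). NDUFS7, next to the quinone site, measured 10.60 and 10.67, 10.73 and 10.73, and 9.94 and 10.13, a difference of -0.60 ± 0.08 (limma adjusted p = 0.006). NDUFS4, an accessory subunit in which mutations cause Leigh syndrome, measured 10.23 and 10.19, 10.19 and 10.19, and 9.39 and 9.68, a difference of -0.68 ± 0.10 (limma adjusted p = 0.008). The values of NDUFS4 in experiments 1 and 2 nearly coincided, and both arrays of experiment 3 lay well below them. NDUFA7, an accessory subunit, measured 10.95 and 10.98, 10.99 and 10.98, and 10.28 and 10.48. The other complex I genes that passed were NDUFB10 (-0.52), NDUFB4 (-0.44), NDUFA13 (-0.43), NDUFS3 (-0.35), NDUFB5 (-0.33), NDUFAB1 (-0.32) and NDUFB6 (-0.31). They span the arm that takes up electrons and the membrane arm alike.

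NDUFS1, the largest subunit of complex I, had probe sets that ran in opposite directions. Its brightest probe set measured 10.43 and 10.41 in experiment 1, 10.35 and 10.38 in experiment 2, and 10.74 and 10.58 in experiment 3, a difference from experiment 1 of 0.24 (limma adjusted p = 0.067). A second probe set of the gene measured 7.49 and 7.38, 7.23 and 6.98, and 6.47 and 5.40. The 2 probe sets moved apart in experiment 3, and averaging the gene's probe sets gave -0.43 (limma adjusted p = 0.044), while with median centring the brightest one gave 0.28 (adjusted p = 0.038). No direction is therefore given for NDUFS1.

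In complex II, SDHC, a membrane anchor, measured 10.88 and 10.85, 10.83 and 10.87, and 10.20 and 10.42, a difference of -0.56 ± 0.09 (SE; limma adjusted p = 0.008). SDHA, the flavoprotein that oxidises succinate, measured 10.67 and 10.66, 10.71 and 10.70, and 10.86 and 10.82. SDHD measured 11.43 and 11.39, 11.31 and 11.39, and 11.28 and 11.10. Subunits of the same small complex therefore had levels of experiment 3 on either side of the other experiments. SDHC also had the most probe sets of any member, 7, and they disagreed in size. The probe set furthest down measured 9.78 and 9.78, 9.98 and 9.92, and 7.26 and 7.25, while a dimmer one measured 7.43 and 7.25, 7.21 and 7.24, and 7.54 and 7.81.

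**Figure D4:**
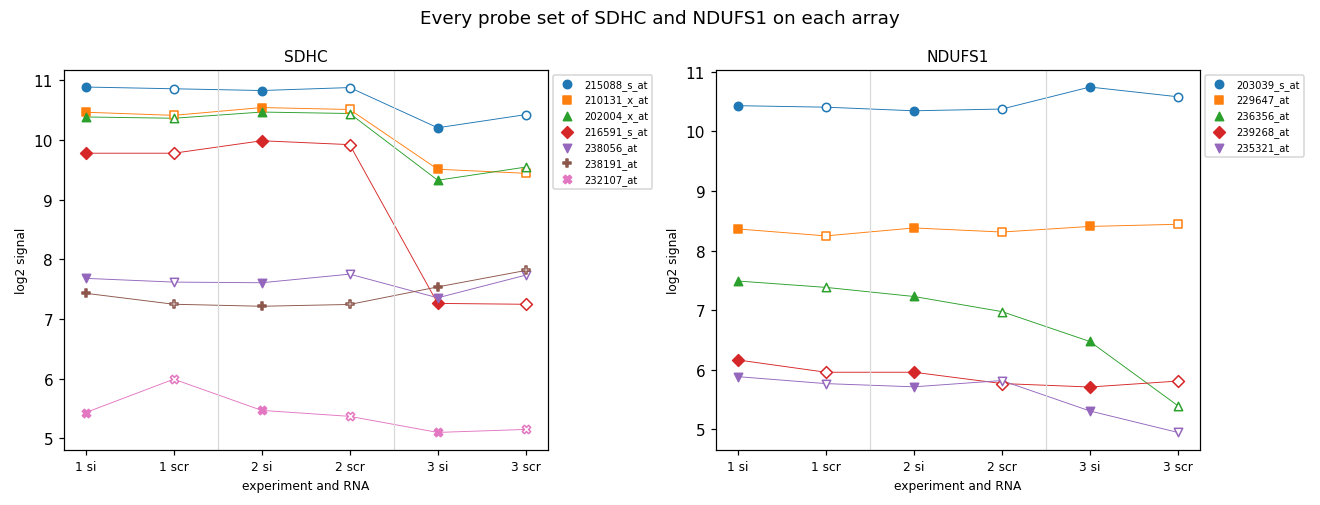
Levels (log2, RMA) of each probe set of SDHC and NDUFS1 in the 6 arrays, with filled symbols for siRNA and open for scrambled arrays; lines only join the points of a probe set. For SDHC a probe set at 9.78 to 9.98 in experiments 1 and 2 lies at 7.25 and 7.26 in experiment 3, while the brightest one goes from 10.88 to 10.20 in the siRNA arrays.

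Other members had probe sets that disagreed too. Beside the probe sets used, 54 further ones of 36 members were above the dim limit. Of the 54, 32 were lower in experiment 3 than in experiment 1 and 22 higher, with a median of -0.06, 8 passed as lower and 7 as higher, and 20 had the sign opposite to the one used. NDUFB10 is an example: its second probe set measured 10.09 and 10.10, 10.20 and 10.20, and 10.28 and 10.34, and the average over its probe sets gave -0.15 (limma adjusted p = 0.263). Other members that passed had dimmer second probe sets that moved less. These differed by -0.09 for NDUFV1, -0.06 for NDUFA7 and -0.17 for ATP5F1D. Near the dim limit they differed by -0.02 for NDUFS7 and -0.08 for ATP5MC2. The second probe set of UQCR11 was higher by 0.32. For these genes the lower level rests on the brightest probe set.

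Of complexes III and IV, 1 of 6 and 2 of 17 genes passed. In complex III it was UQCR11 (-0.27), and in complex IV they were COX8A (-0.36) and COX7A2L (-0.29), a factor in joining complexes III and IV. COX7A2, another small complex IV subunit, measured 12.65 and 12.64, 12.62 and 12.63, and 12.86 and 12.76, so both arrays of experiment 3 were above the other 4. In complex III UQCRC2, a core subunit, measured 12.05 and 12.08, 12.09 and 12.09, and 12.05 and 12.05 with its brightest probe set, and 11.46 and 11.51, 11.57 and 11.56, and 11.48 and 11.16 with the next. A probe set of UQCRC2 near the dim limit differed by -0.67 between experiments 3 and 1. Averaging the gene's probe sets gave -0.29 (limma adjusted p = 0.023). In the ATP synthase ATP5MC2 measured 12.06 and 12.03, 12.13 and 12.10, and 11.10 and 11.51, a difference of -0.74 ± 0.13 (SE; limma adjusted p = 0.014), the largest of any member. The other complex V genes that passed were ATP5F1D (-0.30) and ATP5PF (-0.25). Against that, ATP5PB of the peripheral stalk measured 13.21 and 13.21, 13.24 and 13.24, and 13.21 and 13.21, within 0.1 in all arrays. The bulk RNA gives 1 level per gene, so fewer cells of a type and less RNA per cell cannot be told apart. When experiment 3 was set against the DMSO experiment instead, 21 members passed, against 29.3% of all genes: 20 were lower, against 9.73%, and 1 was higher, against 19.5%. The latter was the brightest probe set of NDUFS1, whose second probe set, given above, lay lower in experiment 3 than in experiment 2. That comparison shares the arrays of experiment 3 with the one above.

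Several subunits come as pairs of a common and a tissue-restricted form, and in these arrays the common forms lay far above the dim limit. COX4I1 measured 12.88 to 13.13, and COX4I2, the lung form induced by low oxygen, measured 6.73 to 6.91. COX6A1 measured 12.57 to 12.70, and COX6A2, the heart and muscle form, 5.67 to 5.85. COX6B1 measured 11.76 to 12.11 and the testis form COX6B2 6.22 to 6.54, COX7B 13.15 to 13.18 and COX7B2 4.99 to 5.25, and COX8C was at 2.74 to 2.90. These are ranges of each probe set over the 6 arrays, and levels of different probe sets are not set against each other, since probe sets differ in their response. Of the restricted forms, COX6A2, COX7B2 and COX8C were below the dim limit in every array, with siRNA and ATRA alike. COX7A1, given above, had arrays on either side of it. COX4I2 and COX6B2 lay above it in every array, up to 6.91 and 6.54. The c subunit of the rotor ring comes from 3 genes that encode the same mature protein. Of these ATP5MC1 measured 10.82 and 10.84, 10.92 and 10.94, and 10.56 and 10.78, and ATP5MC3 13.24 and 13.23, 13.29 and 13.30, and 12.98 and 13.08. With the probe sets used, all 3 were lowest in the siRNA array of experiment 3, and of them ATP5MC2 passed against experiment 1. A second ATP5MC3 probe set was also lowest in that array, at 12.82. A dimmer one was highest there, at 8.49, and higher in experiment 3 than in experiment 1 by 0.59 (limma adjusted p = 0.035, each probe set tested). No direction is therefore given for ATP5MC3.

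Promoters of these genes are known for sites of NRF1, of ETS family factors such as GABP, and of YY1. RefSeq promoter windows (GRCh38.p14, 300 bases) were matched for 65 of the 76 members and searched on both strands. The letters CGCATGCG, the core of the NRF1 site, were found in 10 members (15.4%, against 2.19% of all 27305 promoters and 2.88% of the 15843 protein-coding ones), the ETS letters CCGGAAGT in 9 (13.8%, against 4.44% and 6.19%) and the YY1 letters AAGATGGCG in 7 (10.8%, against 1.85% and 2.74%). In 4 members (6.15%, against 1.36% of all promoters) the NRF1 core stood between a G and a C. The ERRα letters TCAAGGTCA were found in 1 member, SDHD (1.54%, against 0.359% and 0.24%). A match is a description of the letters, not a measured site. The stretches below lie upstream of the start of 5 members described above, with the matched letters in capitals, to show how like sequence sits before genes that differed in their values. They are at chr12:53676097-53676144 for ATP5MC2 (minus strand) and, on the plus strand, at chr19:1383813-1383860 for NDUFS7, chr3:120596158-120596205 for NDUFB4, chr11:112086744-112086791 for SDHD and chr11:63974581-63974619 for COX8A. The first 4 show the NRF1 core, and the capitals of COX8A are the ETS letters read on the opposite strand.
ATP5MC2: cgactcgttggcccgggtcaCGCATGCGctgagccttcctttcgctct
NDUFS7: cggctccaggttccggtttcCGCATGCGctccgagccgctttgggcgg
NDUFB4: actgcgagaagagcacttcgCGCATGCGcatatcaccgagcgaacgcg
SDHD: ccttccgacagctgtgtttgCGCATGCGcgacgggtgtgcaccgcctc
COX8A: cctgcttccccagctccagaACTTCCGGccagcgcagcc
Of these ATP5MC2, NDUFS7, NDUFB4 and COX8A were lower in experiment 3 than in experiment 1 (-0.74, -0.60, -0.44 and -0.36), while SDHD did not pass. Of the 10 members with the NRF1 core, ATP5PF passed there too, and ATP5F1C, ATP5ME, COX6A1, NDUFA8 and NDUFS6 did not. Of the 9 with the ETS letters, NDUFA13 and UQCR11 passed besides COX8A. ATP5MK, ATP5PD, COX5B, NDUFS1, UQCRQ and SDHD, which also has these letters, did not. Among all 76 members 18 passed. A link between the letters and the levels was not tested.

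Other genes of the pathway were taken from lists of assembly factors, further chain genes, citrate cycle enzymes, regulators of mitochondrial biogenesis and mitochondrial ribosomal proteins. No member of any of these lists passed in the siRNA, ATRA or difference comparisons. In the siRNA comparison the smallest p of each list belonged to NDUFAF4 (-0.10 ± 0.10), COX19 (-0.12 ± 0.07), COQ6 (0.16 ± 0.10), SUCLG2 (0.07 ± 0.09), the dim PPARGC1A (0.06 ± 0.05) and MRPS35 (-0.40 ± 0.24), each as the difference ± SE over 3 experiments. For ATRA they were NDUFAF3 (-0.38 ± 0.34), the dim COX17 (0.38 ± 0.20), GPD2 (0.72 ± 0.39), IDH3G (-0.63 ± 0.50), GABPA (0.27 ± 0.29) and MRPL16 (-0.40 ± 0.24). For the difference of effects they were ECSIT (-0.20 ± 0.24), SDHAF3 (0.25 ± 0.24), COXFA4L2 (-0.21 ± 0.15), IDH2 (-0.20 ± 0.40), NRF1 (0.20 ± 0.26) and MRPS11 (-0.20 ± 0.28). Between experiments 3 and 1, of 16 complex I assembly factors 1 passed as higher and 4 as lower, with a median of 0.02, and of 39 assembly factors of the other complexes 7 and 7, with a median of -0.07. Of 12 citrate cycle genes 4 and 3 passed, with a median of -0.03, and of 22 further chain genes 4 and 6, with a median of 0.06. Among the latter CYC1, cytochrome c1 of complex III, had -0.22 ± 0.05 (SE; limma adjusted p = 0.031). COXFA4, formerly NDUFA4 and now assigned to complex IV, fell outside the name rule and measured 12.54 and 12.57, 12.56 and 12.58, and 12.23 and 12.44 in the siRNA and scrambled arrays of experiments 1, 2 and 3. Of 55 mitochondrial ribosomal proteins 6 passed as higher and 16 as lower, with a median of -0.11, against 17.3% and 8.16% of all genes.

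The regulators of biogenesis ran the other way from the subunits. All 16 were higher in experiment 3 than in experiment 1, with a median of 0.29, and 10 passed, against 17.3% of all genes. PPARGC1B, a coactivator of nuclear respiratory genes, had the largest difference, 1.37 ± 0.09 (SE; limma adjusted p = 0.002). Its used probe set measured 7.10 with the siRNA and 6.87 with scrambled RNA in experiment 1, 7.06 and 7.12 in experiment 2, and 8.36 and 8.35 in experiment 3. Another of its probe sets above the dim limit differed by 0.39, and 2 others near that limit by 0.06 and -0.05. The related coactivator PPRC1 had 0.93, the mitochondrial helicase TWNK 0.69, and TFAM, which packages and transcribes mitochondrial DNA, 0.29. Experiment 3 thus held lower levels of many subunits together with higher levels of these regulators, in the same 2 arrays whose actin 3′ to 5′ gap was widest, and the part of that gap in either was not tested.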

How the data were processed

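Deposited values were log2 expression values of 54675 probe sets on 6 Affymetrix arrays, which the authors normalized with RMA; the series' design text names BRB-ArrayTools for this step, and no version was found. RMA sets the arrays to a common distribution, so a shift shared by all genes would not be seen. Probe sets took their gene from the platform annotation with symbols updated through RefSeq (GRCh38.p14); 41091 named 1 gene, and those naming several or none were left out, as were 62 control probe sets. The probe set with the highest mean stood for its gene.

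The 19775 genes were tested with limma 3.58.1 (R 4.3.3; lmFit, eBayes with trend), adjusted by Benjamini-Hochberg at 0.05: siRNA against scrambled over 6 arrays with treatment as a covariate, ATRA against DMSO over 3 experiment means, the difference of the siRNA effects over 4 groups, and experiment 3 against 1. Residual degrees of freedom were 3, 1, 2 and 2. The experiment numbers paired the arrays: deviations from group means correlated at 0.679, 0.795 and 0.883 within experiments 1, 2 and 3, and the design text names independent experiments. The rule for named genes took the 4 members with the smallest p in each direction in each comparison, the first of each complex, the isoform pairs, and members whose probe sets disagreed, and of other genes PRAME, CYP26A1 and the gene of each list with the smallest p in each comparison. They are given by array, except most isoform genes, given as ranges, and most genes outside the members, given as differences. Further members and regulators were named because they passed between experiments 3 and 1, after their values were seen. Members and lists were chosen with earlier results of these data known. On simulated data with the 19775 genes, the siRNA comparison recovered 38% of changes of 0.5 and 86% of changes of 1 (log2). With the block it recovered 58% and 98%. The ATRA comparison recovered 2% of changes of 1 and 62% of changes of 2, and the difference of effects 2% and 52%. Experiment 3 against 1 recovered 78% of changes of 1. The simulated spread between experiments was 0.5 of the estimated one, and none was added for experiment 3 against 1. Recovery without the block can therefore be lower in the real arrays. There PRAME did not pass in the main siRNA fit, nor CYP26A1 in the ATRA fit. The NRF1 core was searched after a longer form of that motif. Alternatives were the block, other rules for probe sets, median centring, renewed quantile normalization and leaving out each array. The number of arrays limits the precision.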

Additional observations from a re-analysis of the deposited data

How the results depend on the processing

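No member passed in the siRNA or difference comparisons under any alternative run. NDUFS1, at 0.24 and not passing between experiments 3 and 1, passed at -0.43 with probe sets averaged, and as higher with centring (0.28), quantile normalization (0.25), dim genes left out or siRNA as a covariate (0.24 in both). With the experiment as a replicate block 5 genes passed in the siRNA comparison (2 without experiment 3, 1 without experiment 1 or 2), and the members' median stayed at -0.04 (-0.07 to 0.00 with experiments left out). Leaving out single arrays gave medians of -0.10 to 0.01 for siRNA, -0.13 to -0.07 for ATRA and -0.14 to 0.0481 for the difference of effects, where leaving out a DMSO array gives no value; with the block it was -0.12 to 0.01. The ATRA comparison passed 3 genes with the experiment as a random block (correlation 0.5), 4 without a block, 36 between experiments 1 and 2, and 5788 with 21 members between experiments 3 and 2. Experiment 3 against 1 passed 9428 probe sets, 34 of members, when each probe set was tested, and 0 genes and members without any 1 array (1 residual degree of freedom; medians -0.22 to -0.08). Centring or quantile normalization moved the median of all genes by under 0.1 and gave 20 members, 3 and 2 of them higher. Over the named members, 13 values of that comparison passed newly and 21 no longer did, the latter with an array left out except NDUFB10 with probe sets averaged; 8 values of the ATRA comparison passed newly, all between experiments 3 and 2. Depth here means signal over background: COX6A2, COX7A1, COX7B2 and COX8C were dim.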

Other observations

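MRPS35, a protein of the small mitochondrial ribosomal subunit, had the smallest p of its list in the siRNA comparison. It measured 10.08 with the siRNA and 10.63 with scrambled RNA in experiment 1, 10.07 and 10.66 in experiment 2, and 10.88 and 10.94 in experiment 3. The siRNA array was lower by more in experiments 1 and 2 (-0.55 and -0.59) than in experiment 3 (-0.06). The mean of -0.40 ± 0.24 (SE, 3 experiments) did not pass the limma test (adjusted p = 1, and 0.535 with the experiment as a block).

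GPD2, the glycerol 3-phosphate dehydrogenase that feeds electrons to ubiquinone, measured 7.33 and 7.16 in experiment 1, 6.93 and 6.91 in experiment 2, and 7.96 and 8.11 in experiment 3. All 4 ATRA arrays were above both DMSO arrays, and experiment 3 was above experiment 1 by 0.79. The gene did not pass between ATRA and DMSO over the 3 experiments (limma adjusted p = 0.995) or between experiments 1 and 2 alone (0.187).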
